A study of Mus musculus with 4 samples.

Results

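Ear2 Lyz1 myeloid cells were examined in single-cell RNA sequencing of mouse brown adipose tissue (BAT). The material was the stromal vascular fraction (SVF), the immune, stromal and vascular cells left when the fat cells are removed. The cells were chosen by expression, from counts of unique molecular identifiers (UMIs, each standing for 1 captured transcript). A cell was taken if Ear2 and Lyz1 together reached at least 5 per 10,000 UMIs and if 7 macrophage genes (Lyz2, Cd68, Ctss, Csf1r, C1qa, C1qb and C1qc) together reached at least 30. Upper limits kept out other cells: under 10 for the perivascular macrophage genes Lyve1, Cd163, Folr2, Cbr2 and F13a1, and under 20 for the lipid-associated macrophage genes Trem2, Gpnmb, Spp1, Cd9 and Mmp12. The limit was also 20 for the inflammatory genes Il1b, Ccl3 and Ccl4 and for the endothelial genes Cdh5, Cldn5 and Gpihbp1, and 30 for the stromal genes Col1a1, Col1a2, Col3a1, Dcn and Gsn. This gave 407 Ear2 Lyz1 cells among 28887 quality-passing cells. As these genes chose the cells, their levels are descriptions only, and so is every comparison of the chosen cells with other cells.

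Ear2 encodes an eosinophil-associated ribonuclease of the RNase A family, a secreted enzyme that mouse myeloid cells also make. Lyz1 and Lyz2 encode lysozyme, which cuts the bacterial cell wall; Lyz2 is made by macrophages and neutrophils widely, and Lyz1 is best known from Paneth cells of the gut. Fibronectin (Fn1), the chemokine receptor gene Ccr2, MHC class II and Retnla, which encodes the secreted protein RELMα, are known together from young macrophages that descend from blood monocytes, among them those of the peritoneal and pleural cavities, which also make Cd226 and Irf4.

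There were 4 libraries, 1 per group, each made from pooled mice. The WT library came from C57BL6/J mice aged 10 weeks, and the db/db 8w and 16w libraries from leptin receptor mutant mice of the B6.BKS(D)-Leprdb/J strain aged 8 and 16 weeks. The HFD library came, by the study, from wild-type C57BL6/J mice fed a high-fat diet for 10 weeks. The HFD mice were labelled as aged 10 weeks, whereas the study started the diet at that age, so their age is not settled. All mice were males that had been fasted, by the study, and BAT had been freed of the surrounding white fat. Without replicate libraries no difference was tested, and the 95% intervals describe counting error, not how mice or preparations vary. Genotype, age, diet and library cannot be told apart, nor, given the Xist RNA of db/db 16w described below, can sex.

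The libraries held between 28504069 and 61828295 UMIs, the fewest in db/db 16w. Of all barcodes, the quality limits kept 71.5% in WT, 63.6% and 89.5% in db/db 8w and 16w, and 31.3% in HFD, and most of those lost in HFD lay over the mitochondrial limit. The Ear2 Lyz1 cells themselves had a median of 7402 UMIs in WT, 4752 and 2461 in db/db 8w and 16w, and 5722 in HFD. One library, db/db 16w, stood apart from the rest. Xist, the RNA of the inactive X chromosome of females, was at 265 CPM (the UMIs of a gene per 1000000 UMIs of the same cells) in its Ear2 Lyz1 cells, against 0 in those of the other 3 libraries, although the study describes male mice. The median mitochondrial share of its Ear2 Lyz1 cells was 1.12%, against 4.01% to 10.0% elsewhere. Where 4 values follow each other without names they belong to WT, db/db 8w, 16w and HFD, and where 3 do, to the obese groups in this order. No Ear2 Lyz1 cell shared its barcode with a cell of another library.

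Lyz1 and Lyz2 are neighbouring genes of mouse chromosome 10 and near copies of each other, so their sequences bear on whether the reads could be told apart. Lyz1 lies on the minus strand at chr10:117287797-117292868 (GRCm38), and Ear2 on the plus strand at chr14:44102654-44103534. The coding sequences of Lyz1 and Lyz2 are 447 bases each and differ at 22 of them (95.1% identity). The stretch below, coding bases 43 to 132 of the GENCODE transcripts of GRCm38, holds 13 of these differences, which are in capitals.
Lyz1: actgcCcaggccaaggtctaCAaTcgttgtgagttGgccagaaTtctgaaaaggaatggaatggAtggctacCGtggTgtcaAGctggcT
Lyz2: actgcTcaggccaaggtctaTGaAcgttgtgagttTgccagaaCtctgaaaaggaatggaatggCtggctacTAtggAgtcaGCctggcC
Of the windows of 50 bases within the last 500 bases of the Lyz1 transcript, where 3′ libraries read, 17.7% also occur in Lyz2. Ear2 has closer relatives: its coding sequence of 471 bases is 97.0% identical to that of Ear10, and 24.2% of its last windows occur in Ear10 and 31.7% in Ear1. Reads in such windows fit both genes. In the Ear2 Lyz1 cells Ear10 and Ear6 had no UMI in any library, and Ear1 had 1 UMI in db/db 8w and 2 in HFD.

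As a description of what the rule chose, the share of Lyz1 in all lysozyme UMIs was taken. In WT 6.27% of the UMIs of both lysozyme genes were Lyz1 in Ear2 Lyz1 cells (95% interval 4.68 to 8.21), and in HFD 7.89% (7.42 to 8.37). The db/db 8w and 16w values were 9.14% (8.18 to 10.2) and 3.60% (2.82 to 4.53). In other myeloid cells, chosen by the same limits but with Ear2 and Lyz1 under the cut, it was between 0.179% and 0.524%. Stromal cells, which have little lysozyme RNA, came closer, at 3.68% (2.61 to 5.01) in WT, 7.15% (5.98 to 8.46) and 2.41% (0.293 to 8.43) in db/db 8w and 16w, and 2.87% (1.94 to 4.07) in HFD, and outside HFD their intervals overlapped those of the Ear2 Lyz1 cells. Perivascular macrophages, on which the rule put no Lyz1 requirement other than a value under the cut, had 0.169% to 0.322%, at Lyz2 levels of 5285 to 7526 CPM.

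To see how frequent these cells were, the Ear2 Lyz1 cells of each library were counted. They were 11 of 5944 cells in WT (0.185%, 95% interval 0.0924 to 0.331) and 251 of 5462 in HFD (4.60%, 4.06 to 5.18). The db/db libraries lay between, with 62 of 11648 at 8w (0.532%, 0.408 to 0.682) and 83 of 5833 at 16w (1.42%, 1.13 to 1.76). All 3 libraries of obese mice therefore lay above WT beyond counting error by this rule, HFD furthest, but with Lyz1 alone in the cut the interval of db/db 16w included 0 (-0.0142 to 0.307 points). WT was exceeded by 4.41 percentage points in HFD (3.85 to 5.01), by 1.24 in db/db 16w (0.915 to 1.59) and by 0.347 in db/db 8w (0.156 to 0.523). HFD exceeded db/db 8w by 4.06 points (3.50 to 4.67) and db/db 16w by 3.17 (2.54 to 3.83). Over the myeloid cells alone, those with at least 30 of the macrophage genes, the shares were 0.774% of 1422 cells, 1.20% of 5149, 3.41% of 2435 and 11.9% of 2106. With this denominator the db/db 8w difference of 0.431 points was within counting error (-0.237 to 0.943), but the HFD and db/db 16w differences of 11.1 and 2.64 points were not.

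The WT and db/db 8w counts depended on the limit on Il1b, Ccl3 and Ccl4. Of the myeloid cells past the Ear2 and Lyz1 cut, 86 of 110 exceeded this limit in WT and 420 of 692 in db/db 8w, but 13 of 167 in db/db 16w and 12 of 410 in HFD. Without it there were 47 Ear2 Lyz1 cells in WT (0.791% of all cells), 262 in HFD (4.80%), and 245 (2.10%) and 95 (1.63%) in db/db 8w and 16w. The difference of db/db 16w to WT over myeloid cells was 0.596 points (-0.698 to 1.81). With no upper limit at all 7.74%, 13.4%, 6.86% and 19.5% of myeloid cells passed the cut, so that db/db 16w was then 0.877 points below WT, with an interval that included 0 (-2.68 to 0.838). The HFD library had the highest share under each of the 3 rules.

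**Figure D1:**
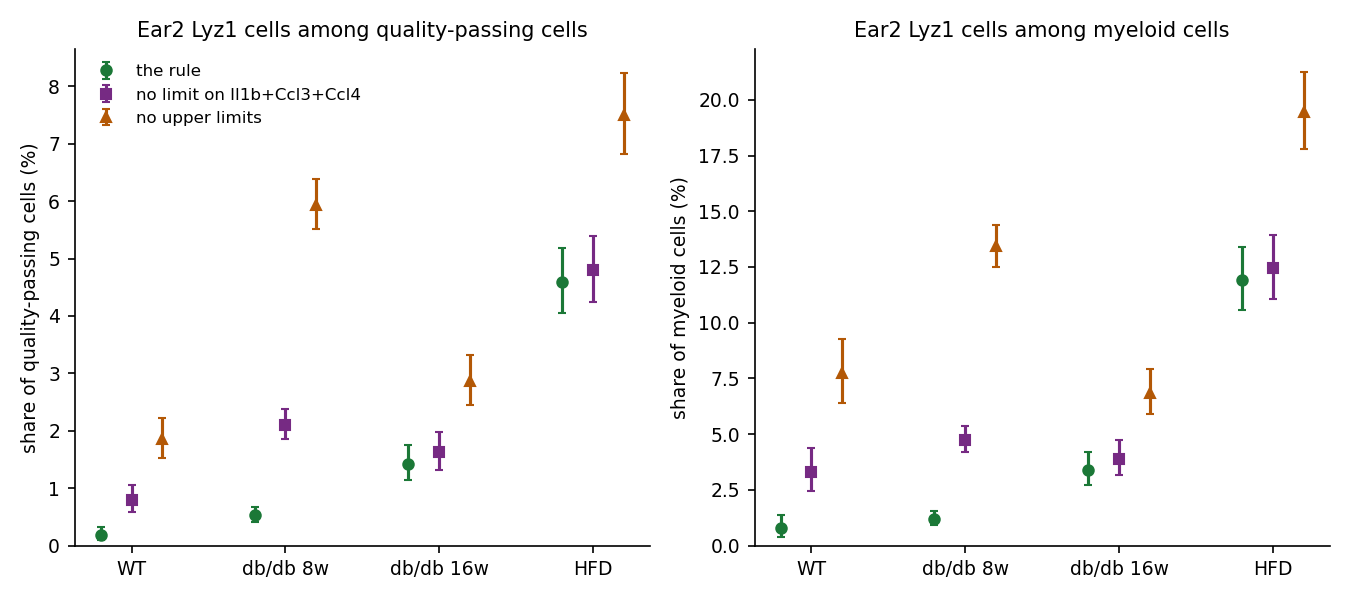
Share of Ear2 Lyz1 cells (y axis, %) among all quality-passing cells (left) and among myeloid cells (right) in each of the 4 libraries (x axis), by the rule (circles), without the limit on Il1b, Ccl3 and Ccl4 (squares) and with no upper limit (triangles); bars are exact 95% binomial intervals. HFD is highest in all 3 settings, whereas WT moves from 0.185% to 1.85% and db/db 8w from 0.532% to 5.94% of cells when all upper limits are dropped.

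Few stromal cells, which should lack Ear2 and Lyz1, passed the cut. Of the stromal reference, cells with at least 30 of the 5 stromal genes, under 10 of the macrophage genes and under 20 of the endothelial genes, 0.119% passed it in WT, 0.449% in db/db 8w, 0 of 1152 in db/db 16w (where 3 cells, the limit taken for a count of 0, would be 0.260%) and 0.432% in HFD. Their median depths were 7032, 4364, 2709.5 and 5096 UMIs. The cut nevertheless rested on few UMIs. A single UMI of Ear2 or Lyz1 placed 1 cell of WT, 7 and 18 of db/db 8w and 16w, and 3 of HFD, and at least 5 UMIs stood behind 8, 41, 21 and 189 cells. Just inside the cut the lowest cells had 6.46, 5.02, 5.16 and 5.03 per 10,000 UMIs, and the highest of the other myeloid cells just outside it 4.36, 4.99, 4.99 and 4.96. Of the other myeloid cells 33 of 37, 113 of 157, 467 of 543 and 420 of 584 had no UMI of either gene, which in a shallow cell does not place it far from the cut. Barcodes over the mitochondrial limit alone held a further 255 such cells in HFD, 2.13% of 11948, and 0, 5 and 1 in WT, db/db 8w and 16w. With these counted, the difference of HFD to WT was 2.76 points.

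Ear2 was at 1236 CPM in the Ear2 Lyz1 cells of WT, 901 and 996 CPM in db/db 8w and 16w, and 1181 CPM in HFD. Lyz1 was at 606, 779.9, 261 and 651 CPM, lowest in db/db 16w. The 2 further genes of the label, Fn1 and Ccr2, were not in the rule. Fn1 reached 2163, 2185 and 2399 CPM in WT, db/db 8w and HFD but 619 CPM in db/db 16w, and other myeloid cells held 231, 716, 380 and 229 CPM in that order. A Fn1 UMI was found in 9 of 11, 45 of 62 and 201 of 251 cells of WT, db/db 8w and HFD, and in 23 of 83 of db/db 16w. Fn1 is also abundant in stromal cells (515 to 2146 CPM), yet 7 further stromal genes together were at 26.1 to 313 CPM in the Ear2 Lyz1 cells, against 14254 CPM or more in the stromal reference. Ccr2 was at 717 CPM in WT and 659.8 CPM in HFD, and at 142 and 164 CPM in db/db 8w and 16w. The other myeloid cells held 143, 330.1, 59.0 and 94.5 CPM in that order. In db/db 16w only a minority of cells carried Fn1 (23 of 83), Ccr2 (21 of 83) or Lyz1 (16 of 83).

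As the libraries differed in depth, the shares were also taken at an equal depth. With every cell drawn down to 1000 UMIs, a step that lost 3 Ear2 Lyz1 cells of db/db 8w and 10 of db/db 16w, Fn1 was held by 54.5% of Ear2 Lyz1 cells in WT, 45.8% and 21.9% in db/db 8w and 16w, and 60.2% in HFD. Ccr2 was then held by 72.7%, 8.47%, 12.3% and 42.6%, against at most 0.864% of stromal cells. Other myeloid cells held it in 21.6% and 23.1% in WT and HFD, but in 6.16% (2.86 to 11.4) and 9.29% (6.90 to 12.2) in db/db 8w and 16w, where the intervals overlapped those of the Ear2 Lyz1 cells (2.81 to 18.7 and 5.80 to 22.1). Without thinning the shares were 81.8%, 72.6%, 27.7% and 80.1% for Fn1 and 81.8%, 33.9%, 25.3% and 73.3% for Ccr2.

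**Figure D2:**
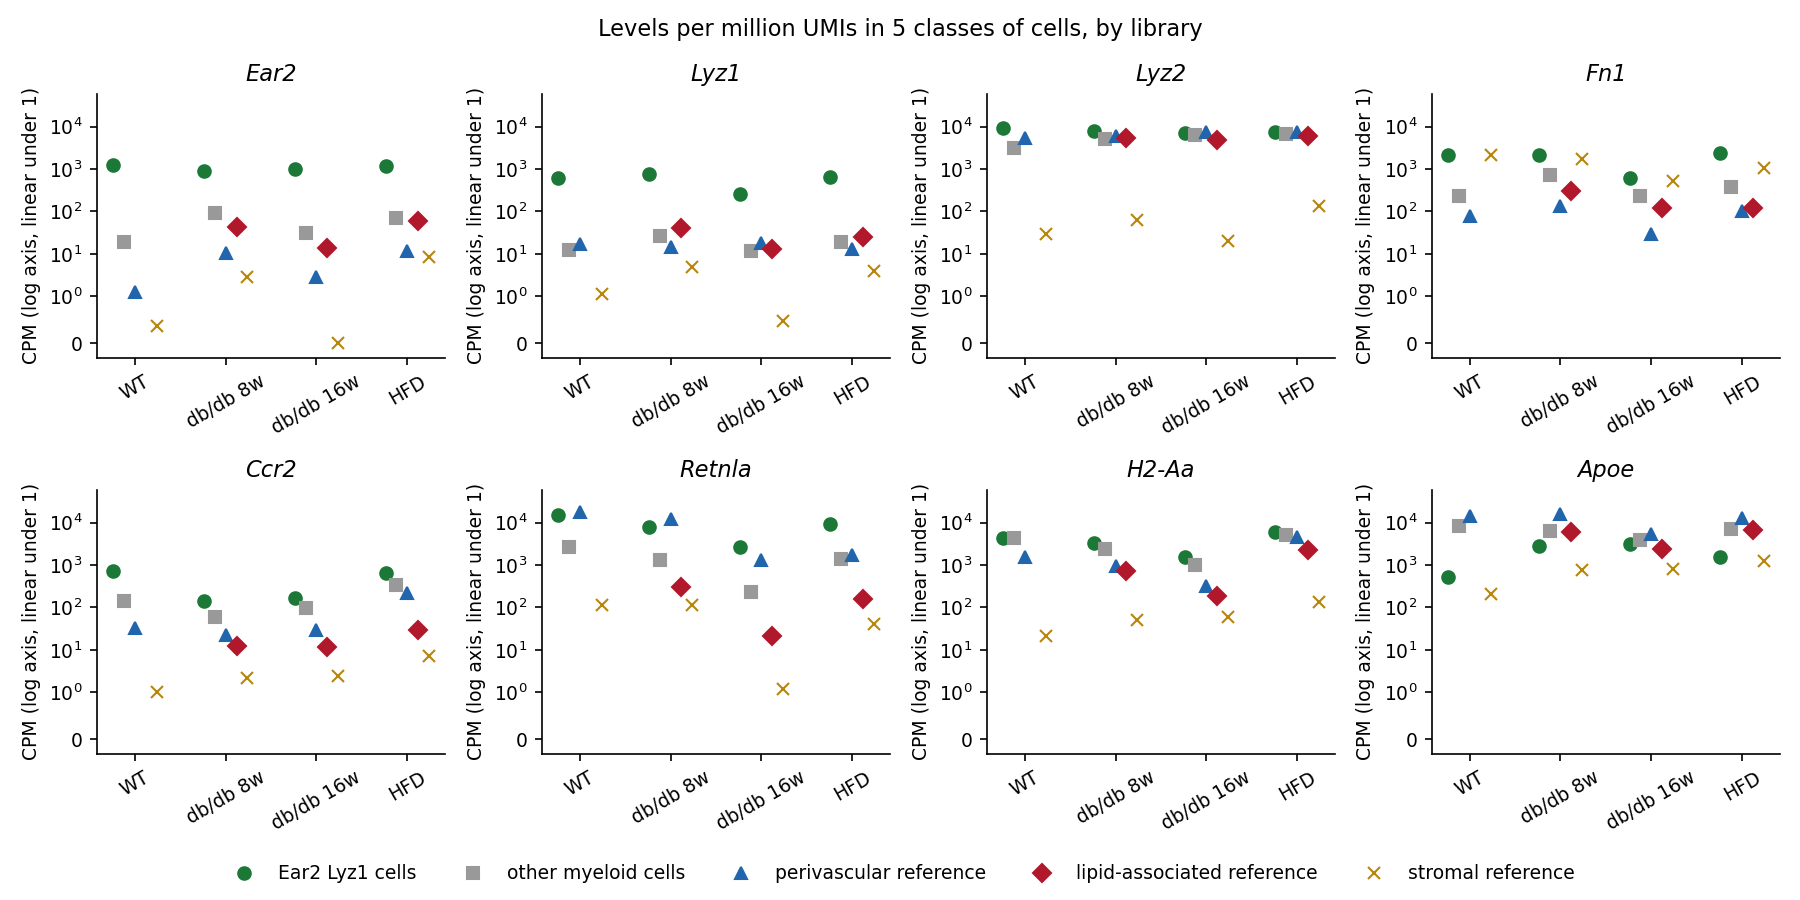
Level of 8 genes (y axis, CPM on a log axis that is linear under 1) in 5 classes of cells (symbols) of each library (x axis), with all UMIs of a class summed; the lipid-associated reference of WT held 3 cells and is not drawn. Ear2 (901 to 1236 CPM) and Lyz1 (261 to 779.9 CPM) chose the Ear2 Lyz1 cells, whereas Fn1, Ccr2 and Retnla were not in the rule and exceed other myeloid cells in every library, Fn1 least in db/db 16w.

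Most genes that define other blood and tissue cells were at or near 0. Of 8 eosinophil genes, Prg2, Epx, Il5ra and Ear6 had no UMI in any library, so that the ribonuclease was found without the granule genes of eosinophils. Alox15, a lipoxygenase of eosinophils and of resident cavity macrophages, had 0 UMIs in HFD and was at 86.5, 106 and 29.8 CPM in WT, db/db 8w and 16w. With Cebpe, a transcription factor of granulocytes (61.8, 12.9, 7.46 and 28.1 CPM), it made up nearly all of the eosinophil sum of 148, 118, 41.0 and 33.3 CPM, which exceeded that of other myeloid cells (0, 74.7, 4.93 and 9.11 CPM). The 8 neutrophil genes summed to 12.4 to 52.2 CPM, and Ly6g, Ngp and Retnlg had none. The 6 B cell genes summed to 24.7 to 48.5 CPM, and T cell, NK cell and mast cell genes to at most 15.4 CPM. Ly6c2, which marks the classical monocyte in blood, had 1 UMI in all, in HFD. Gata6 and Timd4, markers of resident cavity macrophages, had 5 UMIs each, in db/db 8w and HFD respectively. Xcr1 and Flt3 of dendritic cells had 1 UMI each and Clec9a none, but the type 2 dendritic cell list, in which Clec10a, Tnip3 and, in HFD, Mgl2 were the most abundant, summed to 1186, 929, 302 and 790.4 CPM, against 991, 1143, 438 and 635 CPM in other myeloid cells. The 7 endothelial genes beyond the rule summed to 507 to 1887 CPM, mostly from Cd36, which macrophages also make. Flt1, Kdr and Pecam1 among them reached 62.1, 39.2 and 65.3 CPM in HFD and at most 12.4 CPM elsewhere. Adipocyte genes were at 25.7 to 37.3 CPM in 3 libraries and at 268 CPM in HFD. The part of endothelial and adipocyte RNA in the HFD values was not tested. Predicted doublets were 0, 1, 0 and 32 of the Ear2 Lyz1 cells, which in HFD is 12.7%, against 14.4% of all HFD cells.

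Next, Ear2 Lyz1 cells were set against other myeloid cells of their own library. Genes were compared by the ratio of CPM with 10 CPM added, among those with a mean of at least 20 CPM. Of the genes so compared, 22% were at least 2-fold higher in Ear2 Lyz1 cells in WT and 12.3% lower, where 11 cells were set against 37. The shares were 1.19% and 2.16% in db/db 8w, 3.24% and 2.99% in db/db 16w, and 0.916% and 1.56% in HFD, so that outside WT few genes set the cells apart. Of 1802 genes with a mean of at least 50 CPM, 319 were higher by any amount in all 4 libraries and 168 lower, and Retnla headed the former. It reached 15089 CPM in WT, 7961 and 2667 CPM in db/db 8w and 16w, and 9148 CPM in HFD, against 2667, 1290, 235 and 1376 CPM in other myeloid cells. The log2 ratios were 2.50 (95% interval 2.34 to 2.66), 2.63 (2.53 to 2.72), 3.50 (3.35 to 3.66) and 2.73 (2.68 to 2.78). Perivascular macrophages of WT and db/db 8w held more of it still (17474 and 12223 CPM), so Retnla was not particular to Ear2 Lyz1 cells there. In HFD they held 1737 CPM. In db/db 16w they held 1275 CPM, but with cells drawn down to 1000 UMIs 17.7% of them had a Retnla UMI (14.2 to 21.8), against 13.7% of Ear2 Lyz1 cells (6.77 to 23.8).

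Fn1 followed, with log2 ratios of 3.23, 1.61, 1.43 and 2.66 in WT, db/db 8w and 16w, and HFD. Gm2a, which encodes the activator protein of ganglioside breakdown in lysosomes, was at 630.3 against 112 CPM in WT and at 611 against 294 CPM in HFD, with log2 ratios of at least 1.05 in all 4 libraries. Naaa, a lysosomal enzyme that degrades N-acylethanolamines, had 2.95, 1.66, 0.81 and 0.94 with 10 CPM added. Ccr2, Ptprc, which encodes CD45, Cd52, the signalling genes Lsp1, Samsn1 and Cytip and the chemokine gene Ccl6 were also higher in each library, by 0.60 to 2.25 on that scale. At the other end were genes of settled tissue macrophages. Pf4, a chemokine gene of perivascular macrophages, was at 124, 353, 824 and 157 CPM, against 1308, 1003, 2649 and 734 CPM. Selenop, which encodes the plasma selenoprotein, had log2 ratios of -3.47, -0.97, -0.87 and -2.13. Maf, a transcription factor of mature macrophages, Ms4a7 and Dab2 were lower in every library too.

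**Figure D3:**
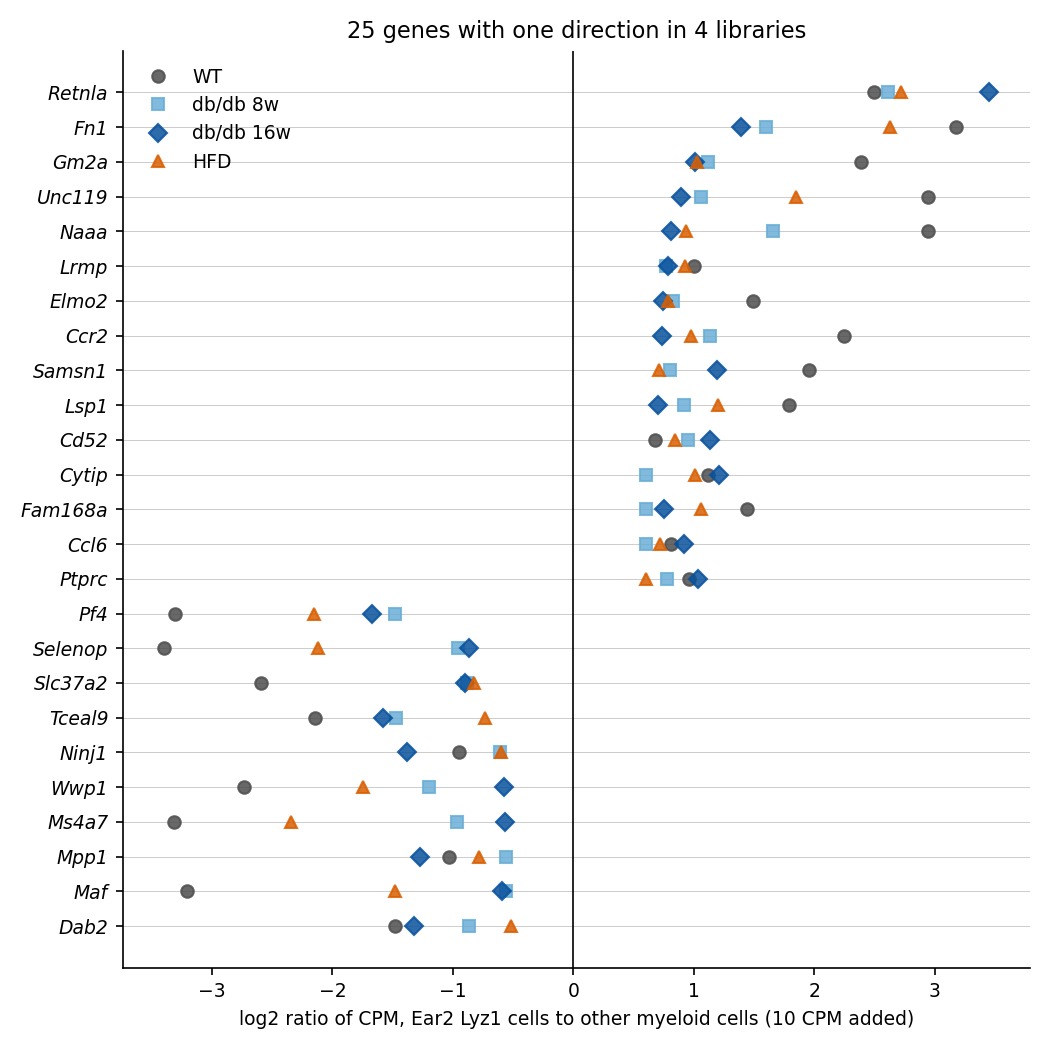
Log2 ratio of CPM (x axis, 10 CPM added) between Ear2 Lyz1 cells and other myeloid cells of the same library for the 15 genes that were higher and the 10 that were lower in all 4 libraries, ranked by their smallest ratio; symbols are libraries. Retnla lies at 2.50 or more in each library, and the WT points, from 11 and 37 cells, spread furthest.

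Gene lists divided in the same way. Of 7 perivascular macrophage genes beyond the rule that were compared in WT, 6 were at least 2-fold lower in Ear2 Lyz1 cells, as were 4 of 7 in db/db 8w, 3 of 6 in db/db 16w and 5 of 6 in HFD, and none was higher. The medians of the list were -3.40, -1.36, -0.98 and -1.88. Adhesion and migration genes were at least 2-fold higher in 7 of 9 in WT, 1 of 8 in db/db 8w and 2 of 8 each in db/db 16w and HFD, with medians of 1.56, 0.40, 0.65 and 0.36 against 0.26, -0.01, 0.07 and -0.02 over all genes. Cell cycle genes summed to less in Ear2 Lyz1 cells in each library, with log2 ratios of the sums of -1.70, -0.67, -3.41 and -1.24. In db/db 16w 8 of 9 of them were at least 2-fold lower, at 97.0 against 1032 CPM in all. There 6 of 9 non-classical monocyte genes were at least 2-fold higher, among them Ace (63.4 against 11.8 CPM), which encodes angiotensin-converting enzyme, and the adhesion receptor gene Adgre4 (119 against 23.5 CPM). In HFD none of 7 was past 2-fold. Of all genes so compared in WT, db/db 8w, 16w and HFD, 22%, 1.19%, 3.24% and 0.916% were at least 2-fold higher. At least 2-fold lower were 12.3%, 2.16%, 2.99% and 1.56%.

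In comparison with the perivascular reference, MHC class II genes stood out, since 8 of 8 were at least 2-fold higher in Ear2 Lyz1 cells of db/db 8w and 6 of 6 in db/db 16w, where 5.07% and 4.4% of all genes were. In HFD it was 1 of 7, where 2.88% of all genes were. H2-Aa, a chain of the MHC class II molecule, was at 3243 against 951 CPM in db/db 8w and at 1526 against 315 CPM in db/db 16w, but at 6103 against 4484 CPM in HFD. Against the lipid-associated reference 8 of 8, 6 of 6 and 7 of 7 were higher in db/db 8w and 16w, and HFD (4.52%, 11.5% and 4.09% of all genes). Lipid-associated genes beyond the rule were at least 2-fold lower than in that reference for 9, 7 and 9 of 11 (4.17%, 6.11% and 4.23% of all genes). The perivascular genes beyond the rule were at least 2-fold lower than in the perivascular reference for 10 of 10, 9 of 9 and 8 of 8 (8.37%, 8.25% and 4.71% of all genes). Each reference was chosen by other genes of the same kind, so the counts of lipid-associated and perivascular genes describe that choice. Lyz2, which both kinds of macrophage make, was at 6990 to 9046 CPM in Ear2 Lyz1 cells and 4939 to 5830 CPM in the lipid-associated reference of the obese mice. The lowest value, that of db/db 16w, came mostly from 11 cells with Lyz1 alone (23629 CPM). The 67 cells with Ear2 alone held 2665 CPM there, less than that reference.

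The Ear2 Lyz1 cells were not uniform. Ear2 without Lyz1 was found in 5 of 11 cells in WT, 27 of 62 in db/db 8w, 67 of 83 in db/db 16w and 151 of 251 in HFD. Lyz1 without Ear2 was found in 2, 13, 11 and 14 cells, and both in 4, 22, 5 and 86. The cells with Lyz1 alone carried more Apoe and Selenop. Apoe, which encodes the lipid carrier apolipoprotein E, was at 8074, 12022, 5588 and 8736 CPM in them, against 94.4, 1951, 3174 and 997 CPM in cells with Ear2 alone. In WT 1 cell with Lyz1 alone held 61.9% of the Apoe UMIs of all Ear2 Lyz1 cells, and in db/db 8w 1 such cell held 28.8%. Mrc1, another gene of mature macrophages, did not follow this order in WT, with 0 against 519 CPM, or in db/db 8w, with 244 against 270 CPM. The cells with both genes held less Apoe than those with Lyz1 alone in every library, with 285, 599.5, 71.3 and 1626 CPM. In WT the cells with Lyz1 alone were 2, with 3468 UMIs in all. In db/db 16w Retnla had no UMI in the 11 cells with Lyz1 alone, 1481 CPM in those with Ear2 alone and 10693 CPM in the 5 with both.

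A second division ran along Retnla. In HFD 182 cells had a Retnla UMI and 69 had none, at median depths of 6227 and 4310 UMIs. Fn1 was at 2859.7 CPM in the former and 694 CPM in the latter. Cd226, an adhesion receptor gene of monocyte-derived cavity macrophages, was at 113 and 12.3 CPM. The order was the opposite in HFD for the monocyte genes Plac8 (5.81 and 147 CPM) and Cx3cr1 (3.32 and 70.6 CPM), and for Apoe (1006 and 3653 CPM), but not for Ccr2 (705 and 491 CPM). Plac8 (0 and 108 CPM) and Cx3cr1 (0 and 58.9 CPM) were likewise lower in the cells with Retnla of db/db 16w. There the 95% intervals overlapped for Cx3cr1 but not for Plac8. The db/db 8w cells held too few UMIs to give an order. Plac8 had 10 and 0 UMIs (33.1 and 0 CPM) and Cx3cr1 6 and 1 (19.9 and 11.6 CPM), with overlapping intervals for both. The 11 cells with Retnla in db/db 16w had 1848 CPM of Fn1 and 31.1 CPM of Apoe, against 231 and 4084 CPM in the 72 without. In db/db 8w the Fn1 values were 2628 and 637 CPM in 44 and 18 cells. Depth moved with this division in each library, and its part was not tested.

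The libraries were then compared within the Ear2 Lyz1 cells. All ratios to WT rest on the same 11 WT cells with 80918 UMIs, of which 1 cell gave 18.8%, and the 3 comparisons share these values. At least 2-fold higher than WT were 8.51% and 12.9% of all genes compared in db/db 8w and 16w, and 10.1% in HFD; at least 2-fold lower 16.1%, 19.7% and 13%. The median log2 ratio of all genes was -0.18, -0.12 and -0.11. Medians of lists are taken over those of their genes that had a mean of at least 20 CPM.

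MHC class II genes, which present peptides to helper T cells, lay below WT in the db/db libraries and above it in HFD. The 9 genes summed to 23319.9 CPM in WT, 16996 and 7687 CPM in db/db 8w and 16w, and 31144 CPM in HFD. Relative to WT the log2 ratio was 0.42 in HFD (95% interval 0.35 to 0.48) and negative in both db/db libraries, at -0.46 (-0.53 to -0.38) in 8w and -1.60 (-1.69 to -1.51) in 16w. Thus db/db 16w was lowest and HFD highest. Of the 8 genes compared, 1 was at least 2-fold lower than WT in HFD, against 2 and 7 in db/db 8w and 16w, and none was higher. Of all genes 13% were lower in HFD, and 16.1% and 19.7% in db/db 8w and 16w, so only db/db 16w lay far above that share. The median log2 ratios of the list were -0.49, -1.85 and 0.40. Set against HFD directly, 6 of 8 were at least 2-fold lower in db/db 16w and none higher, where 11.7% and 8.69% of all genes were. Set against db/db 8w it was 7 of 8 and none, where 8.5% and 7.71% of all genes were. Cd74, the chaperone of MHC class II, followed with 10208, 7652, 3700 and 13105 CPM in WT, db/db 8w and 16w, and HFD. Other myeloid cells had the same order for H2-Aa in db/db 8w and 16w, and HFD, at 2322, 1021 and 4949 CPM. At equal depth 67.6%, 64.4%, 32.8% and 87.3% of other myeloid cells held an H2-Aa UMI. The shares were 42.8%, 29.5%, 11.7% and 85.3% in the perivascular reference, and 2.24%, 3.73%, 1.07% and 10.7% in stromal cells. HFD was thus highest and db/db 16w lowest outside the Ear2 Lyz1 cells too. The part of this library-wide order in their values was not tested. Without the limit on Il1b, Ccl3 and Ccl4 the HFD ratio of the 9 genes was 0.08, so the height of HFD above WT depended on this limit. Of the WT UMIs of the 9 genes 1 cell held 26.5%.

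Genes of monocyte-derived cavity macrophages were lower than WT in sum in the 3 obese libraries, by log2 ratios of -0.79 and -2.32 in db/db 8w and 16w, and -0.58 in HFD. Of 9 genes in db/db 16w 7 were at least 2-fold lower, where 19.7% of all genes were. The medians of the list were -0.92, -2.06 and -0.74. Retnla makes up most of this sum and had log2 ratios of -0.92 (-1.02 to -0.83), -2.50 (-2.64 to -2.37) and -0.72 (-0.81 to -0.64). Cd226 had 13, 22, 0 and 140 UMIs in WT, db/db 8w and 16w, and HFD, or 161, 56.6, 0 and 91.5 CPM, where 3 UMIs, the floor used for a count of 0, would be 11.2 CPM in db/db 16w. Irf4, the transcription factor these macrophages need, was at 74.1, 41.2, 7.46 and 35.9 CPM. At least 1 UMI of Cd226 or Irf4 was held by 6 of 11, 13 of 62, 2 of 83 and 95 of 251 cells. The lectin gene Mgl2 went the other way in HFD, with 162 CPM, against no UMI in WT and 18.0 and 14.9 CPM in db/db 8w and 16w.

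Fewer single cells of db/db 16w carried these genes. Retnla was held by 10 of 11 cells in WT, 44 of 62 in db/db 8w, 11 of 83 in db/db 16w and 182 of 251 in HFD, with medians of 117, 6.47, 0 and 37.2 per 10,000 UMIs. In WT and db/db 16w 1 cell gave 46.3% and 51.5% of all Retnla UMIs. With cells drawn down to 1000 UMIs the shares of cells were 81.8%, 57.6%, 13.7% and 64.1%, and those of stromal cells 14.7%, 13.5%, 0.194% and 3.96%. The stromal share, which reads free RNA, was thus also lowest in db/db 16w. The summed MHC class II level had a median of 229 per 10,000 in WT, 143 and 8.33 in db/db 8w and 16w, and 313 in HFD. Its range in db/db 16w, from 0 to 793, still included the highest cell of all 4 libraries. Ace, Adgre4, Treml4, Cd300e and Pglyrp1, picked from the non-classical monocyte list, were summed with Gm9733 of the classical monocyte list. The non-classical genes Nr4a1, Spn, Eno3, Itgal, Cx3cr1, Fabp4 and Clec4a3 were left out, so the shares describe the picked genes only. In db/db 16w 48.2% of cells (37.1 to 59.4) held a UMI of the summed genes. The shares in WT, db/db 8w and HFD were 27.3% (6.02 to 61.0), 19.4% (10.4 to 31.4) and 25.1% (19.9 to 30.9), although the db/db 16w cells were the shallowest. The WT share rested on 3 of 11 cells, and its interval included the db/db 16w share.

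**Figure D4:**
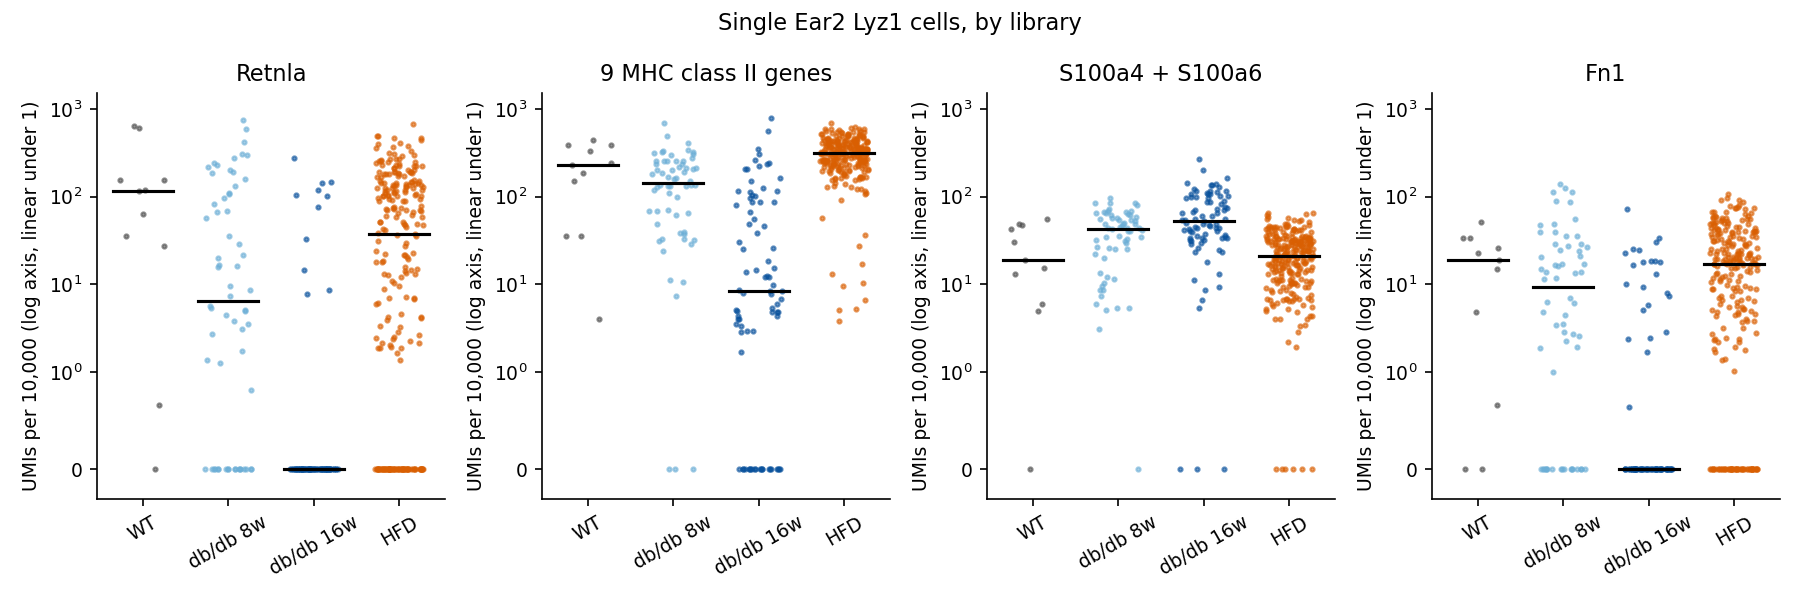
Every Ear2 Lyz1 cell as a point, with UMIs per 10,000 (y axis, log axis that is linear under 1) of Retnla, 9 MHC class II genes, S100a4 with S100a6, and Fn1, by library (x axis); black lines are medians. In db/db 16w the medians of Retnla and Fn1 are 0 and that of MHC class II is 8.33, against 313 in HFD, while the median of S100a4 with S100a6 is highest there (53.3).

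Genes of the S100 and galectin families, calcium-binding and sugar-binding proteins of migrating myeloid cells, went in the opposite direction. Their sum was 8181 CPM in WT, 10582 and 13622 CPM in db/db 8w and 16w, and 6752 CPM in HFD. In db/db 16w 3 of 6 were at least 2-fold higher than WT, where 12.9% of all genes were, and the median log2 ratio was 0.73. S100a6 was at 4741 CPM there, with a log2 ratio to WT of 1.23 (0.99 to 1.47), and at 1213 CPM in HFD. Stromal cells of db/db 16w held 12921 CPM of S100a6 and other myeloid cells 5129 CPM, so this gene was high throughout that library.

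Inflammatory genes that the rule did not use differed by library, though the rule's own limit on Il1b, Ccl3 and Ccl4 bears on them. Cxcl2, a chemokine that attracts neutrophils, was at 7143 CPM in WT, 12020.3 and 634 CPM in db/db 8w and 16w, and 3545 CPM in HFD. The WT level came from 1 cell, which held 91.5% of its UMIs, whereas 54 of 62 cells of db/db 8w and 227 of 251 of HFD had some. Tnf was at 470, 643, 29.8 and 79.7 CPM. Of 9 genes, 3 were at least 2-fold higher than WT in db/db 8w, and 6 were lower in db/db 16w and 4 in HFD, with medians of 0.74, -1.52 and -0.98. Of all genes 8.51% were higher in db/db 8w, and 19.7% and 13% were lower in db/db 16w and HFD. Stromal cells also had least Cxcl2 in db/db 16w (5.56 CPM, against 71.6 to 208 CPM elsewhere).

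Genes of lipid-associated macrophages beyond the rule were higher than WT in each obese library. The 11 genes summed to 9194 CPM in WT, 19160.5 and 17285 CPM in db/db 8w and 16w, and 16352 CPM in HFD. These are log2 ratios to WT of 1.06 (0.95 to 1.17), 0.91 (0.80 to 1.02) and 0.83 (0.73 to 0.94). At least 2-fold higher were 7, 4 and 6 of 11, and 1 was lower, in HFD. Of all genes 8.51%, 12.9% and 10.1% were higher, and 13% were lower in HFD. The medians of the list were 1.21, 0.65 and 1.23. Fabp4, a fatty acid-binding protein, was at 161, 2255, 1462 and 2908 CPM in WT, db/db 8w and 16w, and HFD. Stromal cells held 214, 2055, 9593 and 5272 CPM of it, and 250 of 251 HFD cells had a UMI of it. The part of free RNA in its values was not tested. Without Fabp4, Lpl and Cd36 the log2 ratios of the sums were 0.79, 0.76 and 0.28. Fabp5, a related protein that was low in stromal cells (8.45 to 212 CPM), was at 111, 685, 1041 and 406 CPM in Ear2 Lyz1 cells. Apoe was at 519, 2777, 3111 and 1569 CPM, and its log2 ratios were 2.42 (1.98 to 2.90), 2.58 (2.14 to 3.07) and 1.60 (1.16 to 2.07). Of its WT UMIs 1 cell held 61.9%, and without the limit on Il1b, Ccl3 and Ccl4 the ratios were 1.25, 1.54 and 0.26 (0.13 to 0.38). Other myeloid cells went the other way, with 8281 CPM of Apoe in WT and 6151, 3973 and 6972 CPM in db/db 8w and 16w, and HFD.

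**Figure D5:**
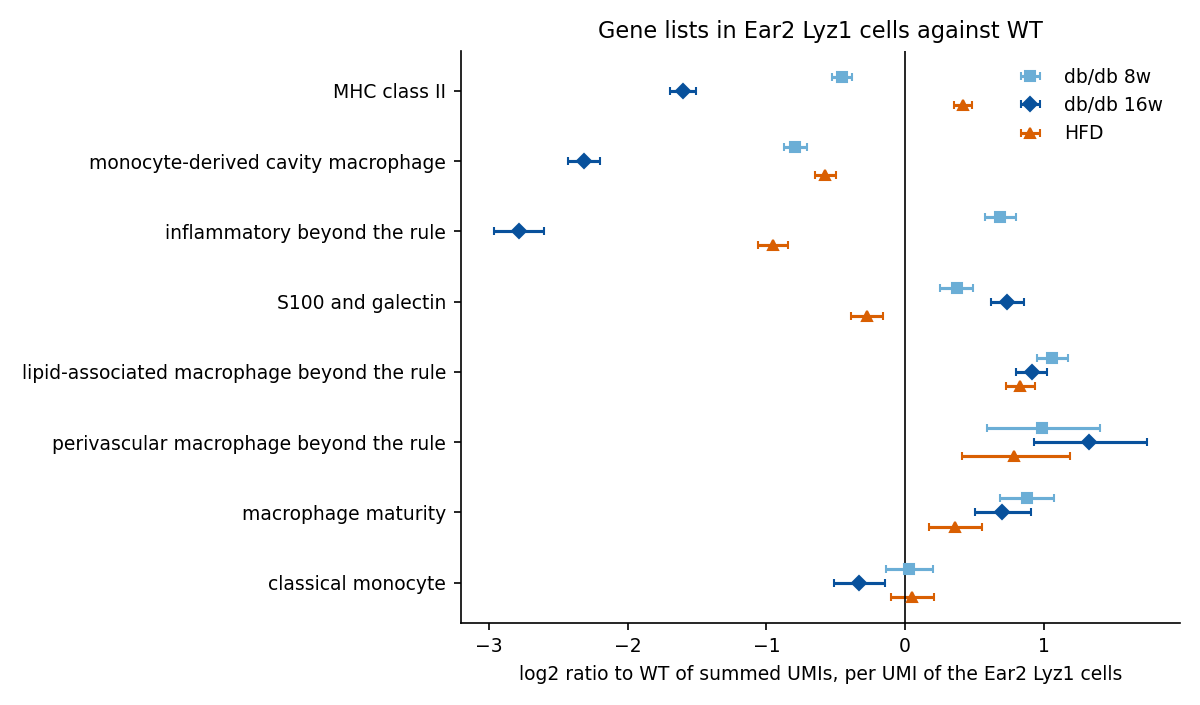
Log2 ratio to WT (x axis) of the summed UMIs of 8 gene lists (y axis) per UMI of the Ear2 Lyz1 cells in db/db 8w and 16w, and HFD (symbols); bars are exact 95% intervals of the counts. MHC class II lies below 0 in both db/db libraries and at 0.42 in HFD, and lipid-associated genes lie between 0.83 and 1.06 in all 3.

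Of 2481 genes with a mean of at least 50 CPM, 579 were higher and 938 lower than WT in all 3 libraries by any amount, in comparisons that share the WT cells. Fabp4, Ccl2, Mtdh, Psmb6, Fabp5, Atp6v1a, Selenop, Anp32e, Apoe, Naa50, Ywhaq and Cdv3 ranked first among the higher ones by their smallest ratio, but all except Apoe rested on 1 to 14 WT UMIs. Of the 42 WT UMIs of Apoe 1 cell held 61.9%. Ifi27l2a, an interferon-induced gene, was the best counted of the 12 that ranked first among the lower ones, with 129, 87, 54 and 534 UMIs, or 1594, 224, 201 and 349 CPM in WT, db/db 8w and 16w, and HFD. Other myeloid cells showed the same, with 2542 CPM in WT and 251 to 375 CPM in the obese libraries. Dusp2, a phosphatase gene of activated cells, had 49 WT UMIs and log2 ratios of -2.00, -2.74 and -2.70 with 10 CPM added; with nothing added and without the limit on Il1b, Ccl3 and Ccl4 they were -0.47, -1.33 and -1.54. Those of C130026I21Rik, Saa3, Rnf145, Setd7, H2-Q6, Tmem154, Klhl28, Parp9, Smarcb1 and Zbtb16 rested on 8 to 10 WT UMIs. In the wider group without the limit on Il1b, Ccl3 and Ccl4, with 47 WT cells, the log2 ratios of Fabp4 were 2.89, 2.63 and 3.74 and those of Ifi27l2a -2.41, -2.61 and -1.60. Those of Apoe were 1.25, 1.54 and 0.26. Those of Ccl2 turned to -0.36, -1.17 and -2.19, and those of Atp6v1a to 0.23, -0.25 and -0.23, with intervals that included 0 for Atp6v1a in each library. Those of Ywhaq were -0.005, 0.26 and 0.56. Intervals also included 0 for Ywhaq and Naa50 in both db/db libraries, for Anp32e in db/db 8w, and for Cdv3 in db/db 16w and HFD. Lyz1 itself was at 2328 and 1615 CPM in WT and db/db 8w in that group, against 367 and 646 CPM in db/db 16w and HFD.

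Among the remaining lists, classical monocyte genes summed to 4301, 4381, 3420 and 4456 CPM in WT, db/db 8w and 16w, and HFD, mostly from Fn1 and S100a4, with log2 ratios of 0.03 (-0.14 to 0.20), -0.33 (-0.51 to -0.15) and 0.05 (-0.10 to 0.21). The medians of the list were -0.32, -0.54 and -0.12, opposite in sign to the sums in db/db 8w and HFD. Interferon response genes summed to 175 to 259 CPM and the interval of their ratio to WT included 0 in each library, with medians of -0.45, -1.28 and -0.06. Secreted growth factors and cytokines were at 606, 1096, 470 and 584 CPM. Tgfb1, the best counted growth factor in WT (22 UMIs), was at 231 to 272 CPM, and its interval included no difference in each library. Macrophage maturity genes were higher than WT in sum, by 0.88, 0.70 and 0.36, with Apoe in the list. Of the WT UMIs of Apoe 1 cell held 61.9%. Mrc1 and Csf1r are in the list too, and of 11 genes 2, 1 and 1 were at least 2-fold higher and 1, 2 and 1 lower. The medians were 0.27, -0.03 and 0.24. Of all genes 8.51%, 12.9% and 10.1% were higher and 16.1%, 19.7% and 13% lower, which these counts did not clearly exceed.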

How the data were processed

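The authors deposited raw UMI counts (genes by barcodes) for 4 libraries made with 10x Genomics 3′ chemistry; the study names Cell Ranger 7.1.0 with mm10, while the headers of the deposited files name 6.0.0. They hold called barcodes before quality filtering. Barcodes were kept with more than 250 but fewer than 6000 genes, more than 500 but fewer than 30000 UMIs, and less than 15% of UMIs mitochondrial. Counts were summed over the cells of a class and divided by all its UMIs (CPM). Shares were given exact (Clopper-Pearson) intervals, sums exact Poisson intervals and ratios exact conditional binomial intervals, at 95%. No test was run, since each group is 1 library. Where a class has 0 UMIs, 3 UMIs served as its floor (37.1 CPM in WT, 7.72 and 11.2 in db/db 8w and 16w, and 1.96 in HFD).

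The members and gene lists were chosen with earlier results of these data known. Perivascular, lipid-associated and stromal references were cells over the respective limit, with Ear2 and Lyz1 under the cut for the 2 macrophage references. Named genes outside the lists had a mean of at least 50 CPM and one direction in all libraries compared, and were ranked by their smallest log2 ratio (15 higher and 10 lower than other myeloid cells, 12 each higher and lower than WT). Scrublet's automatic threshold (scanpy 1.11.5) called 48, 0, 165 and 486 doublets in WT, db/db 8w and 16w, and HFD, so the highest scores down to the expected 0.8% per 1000 barcodes were taken (417, 1776, 320 and 787) and kept in the main setting. Thinning to 1000 UMIs left out 220, 2181, 1119 and 9 cells. The ratio and the cell rule were checked on simulated counts. Python 3.11.15, numpy 2.4.6, scipy 1.17.1, pandas 2.3.3 and matplotlib 3.10.9 were used. No protein sequences were used here.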

Additional observations from a re-analysis of the deposited data

Results flagged for a closer look

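By the rule, MHC class II genes of Ear2 Lyz1 cells went opposite ways against WT: their summed level had a log2 ratio of -0.46 in db/db 8w and -1.60 in db/db 16w but of 0.42 in HFD. Of their WT UMIs 1 of 11 cells held 26.5%. Without the limit on Il1b, Ccl3 and Ccl4, with 47 WT cells, H2-Aa and Cd74 had HFD ratios of -0.02 and 0.0009, with intervals that included 0. They were -0.42 and -0.32 in db/db 8w, and -2.00 and -1.79 in db/db 16w. The HFD direction thus depended on that limit. At equal depth the share of cells with H2-Aa was also highest in HFD and lowest in db/db 16w among other myeloid, perivascular and stromal cells. The difference between these libraries was not tested, as each group is 1 library and all share the WT cells.

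Barcodes that only the mitochondrial limit removed also held cells that meet the expression rule. They were 1.82% of such barcodes in db/db 16w (1 of 55, 95% interval 0.0460 to 9.72) and 2.13% in HFD (255 of 11948, 1.88 to 2.41), against 0 of 1615 in WT, where the exact interval reaches 0.228%.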

How the results depend on the processing

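Differences in the share of all cells to WT are given for db/db 8w and 16w, and HFD, where they moved beyond the counting interval: with no upper limits 4.09 points in db/db 8w and 5.66 in HFD; without the limit on Il1b, Ccl3 and Ccl4 (an alternative chosen after seeing the data) 1.31 in db/db 8w and 0.838 in db/db 16w; by Lyz1 alone 0.139, 0.139 (with an interval that included 0) and 1.18; at a cut of 10 per 10,000 UMIs 0.568 in db/db 16w and 2.89 in HFD; with endothelial barcodes left out of the denominator 1.72 and 6.09 in the same 2. In HFD it was also 2.94 with cells thinned to 1000 UMIs, 3.82 by Ear2 alone and 2.76 with barcodes over the mitochondrial limit counted. Over myeloid cells, no upper limits gave 5.70 in db/db 8w and reversed db/db 16w to -0.88 (-0.877); without the Il1b limit the values were 1.45, 0.596 and 9.14; a cut of 10 gave 1.12 and Lyz1 alone 0.182 in db/db 16w. In HFD they were 7.27 at a cut of 10, 7.19 with thinning, 2.92 by Lyz1 alone and 8.22 with barcodes over the mitochondrial limit. In each case the cells counted, or those they were divided by, change by construction.

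Without the Il1b limit MHC class II ratios were -0.34, -1.91 and 0.079. As the mean of single cells they were 0.51 in HFD and -1.77 in db/db 16w, and as the median of genes, here over all genes of a list with no minimum level, -1.84 in db/db 16w. The classical monocyte ratio of db/db 8w was 0.20 as the mean of cells, 0.37 without the Il1b limit and reversed to -0.28 as the median of genes, as was that of HFD (-0.019). The lipid-associated ratio was 0.93 and 0.74 as the mean of cells in db/db 8w and 16w, 1.21, 0.65 and 1.23 as the median of genes, 0.82 and 1.07 without the Il1b limit in both db/db libraries, 0.66 in HFD without predicted doublets, and 0.79, 0.76 and 0.28 without Fabp4, Lpl and Cd36 (also chosen after seeing the data).

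Genes at least 2-fold apart from WT were 1343, 1766 and 1280, and 2936, 3553 and 2623 with no filter on low values. Against other myeloid cells they were 1902 in WT, 175 and 319 in db/db 8w and 16w, and 138 in HFD; with no filter 4096, 371 and 609 in the first 3, and with 1 CPM added 353, 592 and 231 in the last 3. The cause of these moves was not tested beyond the settings' own construction. All other alternatives stayed within counting error or 1.5 times the count.

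No paired analysis was possible because each group is 1 library, and for the same reason no replicate could be left out. Depth limits WT most: with 11 cells, a gene at 0 may reach 37.1 CPM.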
